A study of Equus caballus with 45 samples.

Results

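Cultured equine chondrocytes were compared after exposure to the conditioned medium (CM) of mesenchymal stromal cells (MSC) whose STING pathway had been switched on, and after exposure to CM of resting MSC. The 6 libraries were taken by their labels, 3 with STING-MSC-CM and 3 with resting MSC-CM, out of 45 in the series. The 3 libraries of a medium differ in a token of the label (PC, ORC or AG1), read here as the horse that gave the MSC. The labels of the MSC libraries in the series carry PC but neither ORC nor AG1, so they do not settle this reading. On this reading, each STING library was set against the resting library of the same MSC donor, across all genes.

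The chondrocytes came from cartilage of the femoropatellar joint and were expanded, frozen and used at low passage. The methods name 1 horse as the donor of the joint cells, so the 3 libraries of a medium are not cells of 3 chondrocyte donors. For STING-MSC-CM, bone marrow MSC were given the STING agonist 2′3′-cGAMP for 2 h, washed and left to condition fresh medium; the methods give 10 μg/mL of agonist and the sample labels 10 ng/mL. Resting MSC-CM came from the same kind of culture with no agonist. By the methods and labels, the chondrocytes of both groups also received IL-1β and TNF-α (20 ng/mL each), stayed with cytokines and CM for 24 h, and were washed and kept for a further 24 h before lysis. For context, 3 chondrocyte libraries with CM of MSC activated by poly I:C through TLR3 (TLR-MSC-CM, the same 3 MSC donors), 1 with the cytokines only and 1 with no addition were used. The last 2 have no replicates.

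STING is an adaptor of the endoplasmic reticulum that binds the cyclic dinucleotide cGAMP, made when DNA appears in the cytosol, and switches on type I interferon genes. Secreted interferon binds its receptor on neighbouring cells, and JAK kinases and STAT proteins then induce interferon-stimulated genes, most of which code for antiviral or antigen-presenting proteins. In the joint, IL-1β and TNF-α drive chondrocytes to release chemokines and collagen-degrading enzymes and to make less cartilage matrix.

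Total counts per library ran from 25193501 to 41942290 in these 6 libraries. A count of 3, used as the floor of detection, was worth 0.0679 to 0.121 CPM (counts scaled to a library of 1000000, with edgeR's TMM factors), and floors cover counting error only. On the first principal component of the 9 libraries with MSC-CM, which held 53.7% of the variance, 99.5% of the spread lay between MSC donors and 0.0668% between media. The libraries with CM of donor ORC stood apart in every medium, as described for the inflammatory genes. Against the chondrocyte label, COL2A1, the collagen that defines cartilage, was at 0 to 0.265 CPM in the 6 libraries, whereas the cartilage proteoglycan ACAN was at 10.3 to 20.6 CPM and the chondrogenic transcription factor SOX9 at 9.27 to 65.9 CPM. Of 14 chondrocyte markers in the count table, 13 passed the filter on low counts, and their summed level was 196 to 598 CPM with resting and 211 to 499 CPM with STING-MSC-CM. The leukocyte marker PTPRC was at 0 to 0.161 CPM, and CD163, SPI1 and CD3E had 0 counts in all 9 libraries with MSC-CM.

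Of 14304 genes tested, 2 rose with STING-MSC-CM at an adjusted p under 0.05 by edgeR's quasi-likelihood test with MSC donor as a block (0.014% of those tested), and none fell (0%). At an unadjusted p under 0.05, 344 genes were higher (2.4%) and 217 lower (1.52%). The 2 genes that passed were ACTG2 and LGALS3BP. No gene passed without the TLR library of donor PC, which enters the estimate of the spread (499 genes at an unadjusted p under 0.05).

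LGALS3BP codes for a secreted glycoprotein that binds galectin-3 and is induced by interferon. With resting medium it was measured at 0.358 CPM for donor PC, 0.323 for ORC and 0.186 for AG1. With STING-MSC-CM it was at 1.09 CPM for PC, 1.47 for ORC and 104 for AG1. All 3 STING libraries lay above all 3 resting libraries, and donor AG1 stood far above the other donors, with a 558-fold higher level than in its resting library against 3.04-fold for PC and 4.56-fold for ORC. The log2 ratios of the 3 pairs were 1.60, 2.19 and 9.12 (PC, ORC and AG1). The fitted log2 fold change was 6.70 ± 0.915 (SE of the fit over 9 libraries, not a spread over the 3 pairs, adjusted p = 0.0205). Without the STING library of donor AG1 it was 2.43, without that donor's resting library 2.47 and without both 1.85, and the call was lost in each case (adjusted p = 1, 0.9999 and 1). It was also lost under edgeR's own filter on low counts (6.71, adjusted p = 0.0725) and with DESeq2 (4.32, adjusted p = 1). Its partner LGALS3, galectin-3 itself, was at 91.9, 62.5 and 98.1 CPM with resting medium and at 103, 53 and 120 CPM with STING-MSC-CM (donors PC, ORC and AG1), a log2 fold change of 0.08 ± 0.0818 that did not pass the test.

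ACTG2, the smooth muscle gamma-actin of contractile cells, moved little but evenly. Its level was 34.6 CPM for PC, 132 for ORC and 31.7 for AG1 with resting medium, and 50.1, 170 and 48.8 CPM with STING-MSC-CM. Every donor's STING library was above its own resting library, by 1.45-fold, 1.28-fold and 1.54-fold, while the 2 groups overlapped because the ORC libraries were high in both. The log2 fold change was 0.50 ± 0.0631 (SE of the fit over 9 libraries, adjusted p = 0.0157). The call was lost without the resting library of PC, the STING or the resting library of AG1, or the pair of PC or AG1 (adjusted p = 0.0653, 0.222, 0.181, 0.0544 and 0.429), with log2 fold changes between 0.43 and 0.49. ACTG2 is close in sequence to ACTA2, the actin of vascular smooth muscle and myofibroblasts, so reads could be shared. ACTA2 was 0.09 ± 0.0946 on the same scale and did not pass. The myosin heavy chain MYH11, another contractile gene, was 1.57-fold, 1.30-fold and 1.15-fold higher for PC, ORC and AG1 and did not pass the test (adjusted p = 0.9998).

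**Figure D1:**
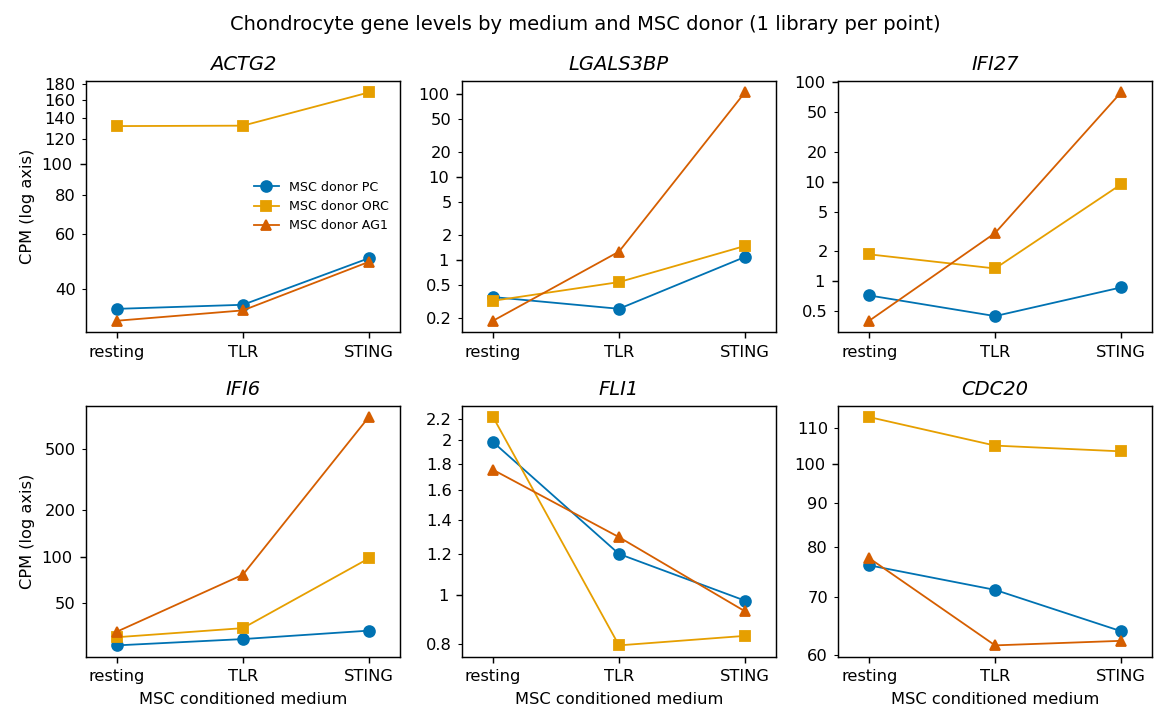
Levels of 6 genes in the 9 chondrocyte libraries with MSC-CM, in CPM on a log axis against the medium, with 1 point per library and lines joining libraries of 1 MSC donor. LGALS3BP, IFI27 and IFI6 are far higher in the STING library of donor AG1 than in any other library, ACTG2 is higher with STING-MSC-CM for each donor, and FLI1 and CDC20 are lower for each donor.

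Of the 16 gene lists, the interferon-stimulated genes had the highest median change. A list of 88 such genes was written, 72 were in the table and 69 passed the filter on low counts. Because that filter summed all libraries with MSC-CM, a gene counted in 1 STING library only could enter only as higher. Of the 69, the following counts include such members. Of these, 44 were higher at an unadjusted p under 0.05 and 0 lower, against 2.4% and 1.52% of all genes, and 1, LGALS3BP, passed after adjustment. In 32 the level was higher for all 3 MSC donors, against 11.7% of all genes tested, and in 1 it was lower for all 3, against 11.5%. The counts rested on donor AG1: without its resting library 11 were higher, without its STING library 9 were higher and 2 lower, and without the pair 7 were higher and 1 lower. The 3 STING libraries lay above the 3 resting libraries without overlap in 10 of the 69, against 2.02% of all genes, and below them in 0, against 1.71%. The median log2 fold change of the list was 0.55, beside 0.004 over all genes tested. It was 0.35, 0.13 and 0.14 without the resting library, the STING library and the pair of AG1. In bulk libraries, more RNA per cell and more cells making it cannot be told apart.

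By MSC donor, the pattern was uneven. The median log2 ratio of the list was 0.121 for PC, 0.133 for ORC and 1.24 for AG1, beside 0.012, −0.0079 and −0.0097 over all genes. Among 11624 genes with at least 1 CPM on average in either medium, 39 were at least 2-fold higher for PC (0.336%), 67 for ORC (0.576%) and 78 for AG1 (0.671%), and 34 (0.292%), 39 (0.336%) and 32 (0.275%) were at least 2-fold lower. Each of these counts compares 1 library with 1 other and has no replicate check. Interferon-stimulated genes made up 3 of the 39 for PC, 6 of the 67 for ORC and 27 of the 78 for AG1. Some of the 27, such as HERC6 and DDX60L, reach 1 CPM on average only through the STING library of AG1 itself. The 3 for PC were LGALS3BP, DDX60L and IFI44, named after their values were seen. The genes at least 2-fold higher for all 3 donors were LGALS3BP, DDX60L and an unnamed gene, ENSECAG00000000968; for PC, DDX60L rests on 8 counts against 3. In 61 of the 69 genes on the list the highest of the 9 libraries with MSC-CM was the STING library of AG1, against 11.6% of all genes. The filter on low counts used that library too. XAF1, for example, was at 0 CPM in every resting library and in the STING libraries of PC and ORC, and at 1.11 CPM in that of AG1. For such genes the choice depends on a value compared here.

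**Figure D2:**
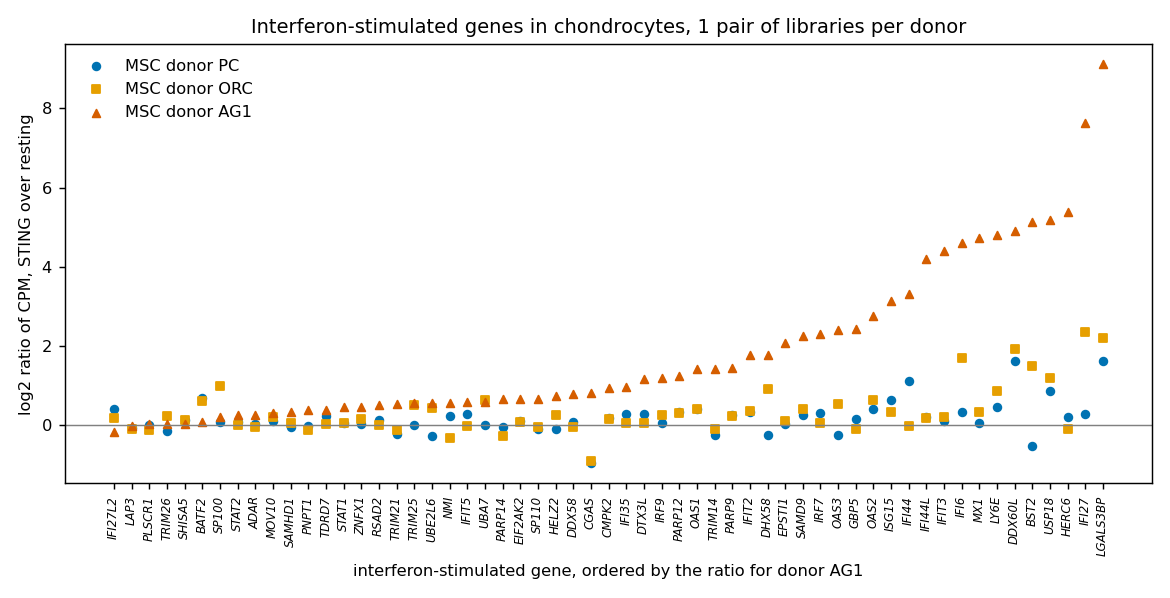
The log2 ratio of CPM, STING over resting medium, for the 57 interferon-stimulated genes with at least 1 CPM in either medium, with 1 point per MSC donor and the genes ordered by the ratio for donor AG1. The points of AG1 climb to 9.12 for LGALS3BP, while those of PC and ORC stay close to 0 except for a few genes at the right.

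IFI27, a mitochondrial protein and one of the most strongly interferon-induced genes, was at 0.716, 1.86 and 0.398 CPM with resting medium (PC, ORC and AG1) and at 0.862, 9.41 and 79.3 CPM with STING-MSC-CM. The AG1 library was highest and the ORC library second, and PC differed little from its resting library. The log2 ratios of the 3 pairs were 0.268, 2.34 and 7.64 (PC, ORC and AG1). The fitted log2 fold change was 4.45 ± 0.763 (SE of the fit over 9 libraries, not a spread over the 3 pairs, adjusted p = 0.129), which did not pass. IFI6, an antiviral membrane protein, went from 26.8, 30.2 and 32.9 CPM to 33.3, 97.7 and 802 CPM, in the same order of donors (adjusted p = 0.617). The log2 fold changes of both were more than 1.5 times smaller without either library of AG1, with IFI27 at 2.31 and IFI6 at 1.26 without that donor's STING library, and both passed without the STING library of PC, at 4.92 and 3.20 (adjusted p = 0.00537 for each), and without the pair of PC, at 5.16 and 3.29 (adjusted p = 0.00556 for each).

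The helicase-like DDX60L was at 0.0976, 0.161 and 0.345 CPM with resting medium and at 0.300, 0.605 and 10.4 CPM with STING-MSC-CM. HERC6, a ubiquitin ligase of the HERC family, was at 4.39 CPM (194 counts) in the STING library of AG1 and at 0 to 0.112 CPM (0 to 4 counts) in the other 5, so that its order among the other donors rests on single counts. The 2′-5′-oligoadenylate synthetases, which make the activator of the RNA-cleaving enzyme RNase L, showed smaller ratios. OAS1 was 1.31-fold, 1.33-fold and 2.66-fold higher for PC, ORC and AG1, and OAS2 1.32-fold, 1.54-fold and 6.72-fold. PARP12, an ADP-ribosyltransferase that restricts viruses, was 1.25-fold, 1.24-fold and 2.37-fold higher. None of these genes passed the test, with adjusted p between 0.207 and 0.900.

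The sensors and signalling proteins upstream of these genes had a small median change. Of 38 genes written for interferon sensing and signalling, 37 were in the table and 31 were tested. The fitted change was above 0 in 27 of the 31, against 7358 of the 14304 genes tested. By donor, the ratio was above 0 in 14 of the 31 for PC, 24 for ORC and 23 for AG1. The median log2 ratios were −0.0082, 0.0958 and 0.103. For all 3 donors 6 were higher and 0 lower (11.7% and 11.5% of all genes). Of the 31, 1 was higher at an unadjusted p under 0.05 and none lower (2.4% and 1.52% of all genes), and the median log2 fold change was 0.06. The gene was TLR3, the endosomal sensor of double-stranded RNA, which had 0 counts in all 3 resting libraries and 9, 3 and 43 counts (0.337, 0.113 and 0.974 CPM) in the STING libraries of PC, ORC and AG1. Its mean with STING-MSC-CM was at least 4.77-fold higher than 3 counts per resting library, and the adjusted p was 0.568. It was at 0.0554, 0.159 and 0.175 CPM with TLR-MSC-CM and at 0.221 CPM in the library with no addition. STING1 itself was at 13.9 CPM on average with resting and 14.4 CPM with STING-MSC-CM. The interferon receptor chain IFNGR1 was 1.04-fold, 1.07-fold and 1.15-fold higher for PC, ORC and AG1, the nuclease TREX1, which degrades cytosolic DNA, 1.08-fold, 1.10-fold and 1.44-fold, and the peptidoglycan sensor NOD1 1.14-fold, 0.982-fold and 1.21-fold. IFNB1, the interferon gene that STING switches on, had 0 counts in all 9 libraries.

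Antigen presentation genes went both ways. Of 27 genes tested, 4 were higher and 1 lower at an unadjusted p under 0.05 (2.4% and 1.52% of all genes), 7 were higher and 8 lower for all 3 donors (11.7% and 11.5% of all genes), and the median log2 fold change was 0.06. B2M, the light chain of MHC class I, was at 167, 163 and 180 CPM with resting medium and at 194, 180 and 442 CPM with STING-MSC-CM (PC, ORC and AG1). The peptide trimmer ERAP1 was at 30.4, 23.4 and 26.3 CPM and then 29.6, 26.1 and 43.2 CPM. PSMB10, a subunit of the immunoproteasome, was 0.754-fold, 0.796-fold and 0.837-fold as high. None passed after adjustment (adjusted p = 0.9998 for each).

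The macrophage marker CD68 stood high in the library where the interferon-stimulated genes were highest. Of the 20 in the table, 9 were tested, and their summed level was 18.2 to 22.2 CPM in the resting libraries and 23.1, 18.7 and 44.0 CPM in the STING libraries of PC, ORC and AG1. For AG1, 4 of the 9 were higher and the median log2 ratio was −0.0703. The difference in the sum lay in CD68, a lysosomal protein, at 36.4 CPM in the STING library of AG1 and at 12.8 to 15.8 CPM in the other 5. CD163, SPI1 and C1QB had 0 counts, and CSF1R and TYROBP had 7 and 1 counts over the 9 libraries. Lymphocyte markers, 3 tested of 11 in the table, summed to 5.17 to 6.77 CPM with resting and 6.26 to 6.68 CPM with STING-MSC-CM. Endothelial markers, 4 tested of 10, summed to 67.4 to 91.5 CPM and 64.7 to 95.8 CPM.

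The median change of the cytokine and chemokine genes differed in sign between MSC donors. Of 32 tested, 2 were higher and 1 lower at an unadjusted p under 0.05 (2.4% and 1.52% of all genes), and 4 were higher and 1 lower for all 3 donors (11.7% and 11.5% of all genes). The median log2 ratio was −0.265 for PC, 0.346 for ORC and 0.134 for AG1. Of the 32, 23 had at least 1 CPM on average in either medium. Among these 23, 4 genes were at least 2-fold lower for PC, namely IL7, IL1B, IL1A and CSF3, and 8 were at least 2-fold higher for ORC (IL1B among them, set against the floor of 3 counts), including CXCL8, CSF3, IL11 and CCL20, all named after their values were seen. For AG1 none of the 23 reached 2-fold either way. Over all genes with 1 CPM, 0.292% were at least 2-fold lower for PC and 0.576% at least 2-fold higher for ORC. For AG1 0.671% were higher and 0.275% lower. Each of these counts compares 1 library with 1 other.

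CXCL8, the neutrophil chemokine IL-8, was at 1754, 44.0 and 1407 CPM with resting medium and at 882, 184 and 1254 CPM with STING-MSC-CM (PC, ORC and AG1). It was 0.503-fold and 0.891-fold as high for PC and AG1 and 4.19-fold as high for ORC, whose 2 libraries stayed below the other 4. The log2 fold change was 0.42 ± 0.521 (adjusted p = 0.9998), and it was −0.65 without the ORC pair. IL6 was at 3386, 878 and 3159 CPM and then 2763, 1262 and 3428 CPM. IL1B was at 8.59, 0 and 6.66 CPM and then 3.75, 0.264 and 6.39 CPM. TNF had 0 counts in all 9 libraries, which allows up to 0.121 CPM in the shallowest of the 6. The eotaxin CCL11 was 1.16-fold, 1.46-fold and 1.07-fold higher for PC, ORC and AG1. The monocyte chemokine CCL2 was 1.20-fold, 1.12-fold and 0.958-fold as high, and the stromal chemokine CXCL12 0.852-fold, 0.791-fold and 0.842-fold. None of these genes passed the test.

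Genes of the NF-κB response gave a median log2 fold change of 0.02 over 37 tested, with 2 higher and 1 lower at an unadjusted p under 0.05 (2.4% and 1.52% of all genes). Complement factor B (CFB), an alternative pathway protease that interferon also induces, was at 166, 71.7 and 124 CPM with resting medium and at 168, 91.7 and 332 CPM with STING-MSC-CM. Only the AG1 pair differed by 2-fold or more (2.69-fold). HAS2, which makes hyaluronan, was 0.650-fold, 0.986-fold and 0.631-fold as high, and the inhibitor NFKBIB 1.11-fold, 1.35-fold and 0.997-fold.

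The libraries with CM of donor ORC differed from those of PC and AG1 whatever the medium. SOX9 was at 65.9, 70.2 and 42.9 CPM in the ORC libraries with resting, TLR- and STING-MSC-CM, and at 7.49 to 10.6 CPM in the other 6. CXCL8 was at 44.0, 35.6 and 184 CPM in the ORC libraries and at 882 to 3356 CPM in the other 6. In the single library with no addition SOX9 was at 46.5 CPM and CXCL8 at 3.02 CPM, and with the cytokines only they were at 8.81 and 3257 CPM. The donor block takes such a shift out of the comparison of media, and the part of this shift in the ORC pair's own STING to resting differences was not tested.

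**Figure D3:**
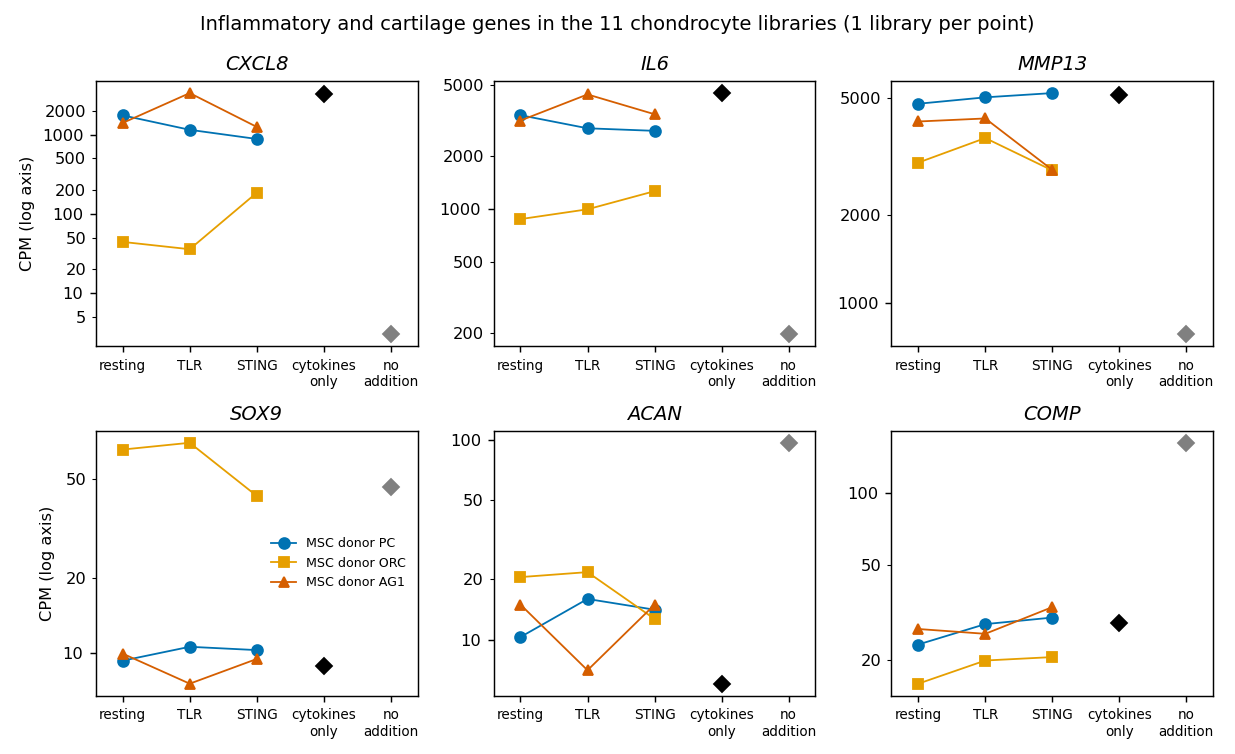
Levels of 3 inflammatory genes (CXCL8, IL6 and MMP13) and 3 cartilage genes (SOX9, ACAN and COMP) in the 11 chondrocyte libraries, in CPM on a log axis, with 1 point per library and lines joining libraries of 1 MSC donor; black and grey diamonds are the single libraries with the cytokines only and with no addition. CXCL8 is lowest and SOX9 highest in the ORC libraries among those with MSC-CM, and no gene separates the 3 STING libraries from the 3 resting ones.

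No cartilage gene passed the test after adjustment. Of 50 tested, 4 were higher and none lower at an unadjusted p under 0.05, against 2.4% and 1.52% of all genes, and the median log2 fold change was 0.09. COMP, a pentameric matrix protein that holds collagen fibrils together, was at 23.2, 15.9 and 26.9 CPM with resting medium and at 30.1, 20.6 and 33.3 CPM with STING-MSC-CM (PC, ORC and AG1). It was higher for each donor by 1.30-fold, 1.29-fold and 1.24-fold, with a log2 fold change of 0.35 ± 0.0857 (adjusted p = 0.900), and stood at 162 CPM in the library with no addition. The mechanosensitive channel TRPV4 was 1.04-fold, 1.24-fold and 1.18-fold higher, and CHI3L1, a chitinase-like glycoprotein released by inflamed cartilage, 1.06-fold, 1.26-fold and 1.14-fold. ACAN was at 10.3, 20.6 and 15.0 CPM and then 14.1, 12.7 and 14.9 CPM, with a log2 fold change of −0.07 ± 0.248. SOX9 was 1.10-fold, 0.650-fold and 0.952-fold as high. COL2A1 was at or near the floor in both media, and no fold is given.

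Of 46 matrix enzymes and inhibitors tested, 1 was higher and none lower at an unadjusted p under 0.05, near the 2.4% and 1.52% of all genes. That gene was ADAMTS5, the main aggrecan-cleaving protease, at 188, 124 and 148 CPM with resting medium and 182, 153 and 189 CPM with STING-MSC-CM. MMP13, the collagenase that cuts type II collagen, was at 4766, 3007 and 4148 CPM and then 5181, 2829 and 2840 CPM, with a log2 fold change of −0.16 ± 0.108 (adjusted p = 0.9998). It was 0.685-fold as high in the AG1 pair and differed by less than 10% in the others. The stromelysin MMP11 was 0.999-fold, 0.889-fold and 0.815-fold as high, and the urokinase receptor PLAUR 0.834-fold, 1.09-fold and 0.802-fold.

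The median of the mitotic genes lay below 0 in every MSC donor's pair, by small amounts. Of 47 tested, 19 were lower and 0 higher at an unadjusted p under 0.05, against 1.52% and 2.4% of all genes, and 32 were lower for all 3 donors, against 11.5%. None passed after adjustment. The median log2 fold change was −0.15, and by donor the median log2 ratio was −0.199 for PC, −0.117 for ORC and −0.114 for AG1. With TLR-MSC-CM, set against the same resting libraries, the median was −0.14. CDC20, the activator of the anaphase-promoting complex, was at 76.2, 113 and 77.7 CPM with resting medium and at 63.9, 103 and 62.3 CPM with STING-MSC-CM. The hyaluronan-binding spindle protein HMMR was 0.779-fold, 0.855-fold and 0.852-fold as high, the microtubule bundler NUSAP1 0.867-fold, 0.856-fold and 0.831-fold, and the midbody kinesin KIF23 0.866-fold, 0.886-fold and 0.811-fold. ASPM, which focuses spindle poles, was at 175, 130 and 168 CPM and then 153, 109 and 138 CPM. These 5 were among the 12 lower genes of smallest p. Leaving out the resting library of AG1 lowered the count of 19 to 4, and leaving out the STING library or the pair of PC to 9.

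The median of the DNA replication genes was below 0 for PC and slightly above 0 for ORC and AG1. Of 46 tested, 1 was lower and 0 higher at an unadjusted p under 0.05 (1.52% and 2.4% of all genes), with a median log2 ratio of −0.213 for PC, 0.027 for ORC and 0.038 for AG1. POLA1, the catalytic subunit of the priming polymerase, was 0.817-fold, 0.906-fold and 0.867-fold as high, and PRIM1, the primase beside it, 0.817-fold, 0.825-fold and 0.939-fold. MCM6, a subunit of the replicative helicase, was 0.754-fold, 0.943-fold and 1.01-fold as high.

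Cytosolic ribosomal protein genes had a median slightly below 0. Of 67 tested, 14 were lower and 0 higher at an unadjusted p under 0.05 (1.52% and 2.4% of all genes) and 42 were lower for all 3 donors (11.5% of all genes), with a median log2 fold change of −0.10 (median log2 ratios of −0.0246 for PC, −0.164 for ORC and −0.123 for AG1). None passed after adjustment. RPS6 was at 464, 566 and 440 CPM with resting medium and at 428, 502 and 369 CPM with STING-MSC-CM, and RPL22 at 140, 151 and 132 CPM and then 128, 119 and 114 CPM. RPS4X was 0.994-fold, 0.630-fold and 0.629-fold as high. Ribosomal protein genes have many near-identical processed copies, so the reads counted for each are uncertain. Without the STING library of PC the median was −0.18 and 39 were lower, and without 1 of the other 5 libraries 3 to 8 were lower. Without the pairs of PC, ORC and AG1, 22, 1 and 4 were lower.

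**Figure D4:**
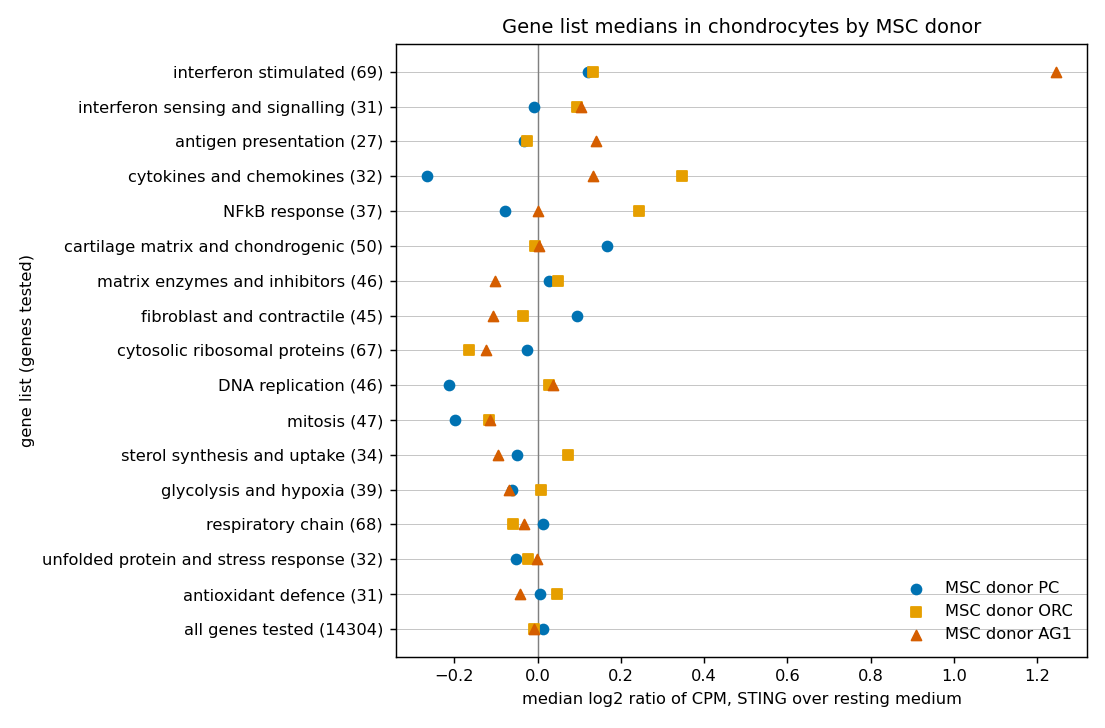
Median log2 ratio of CPM, STING over resting medium, for each of 16 gene lists and for all genes tested, with 1 point per MSC donor and the number of genes tested in parentheses. Interferon-stimulated genes lie at 1.24 for AG1 and at 0.121 and 0.133 for PC and ORC, the mitosis list lies below 0 for every donor, and the cytokine list lies below 0 for PC and above 0 for ORC and AG1.

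In the other lists the counts are read against 2.4% of all genes higher and 1.52% lower at an unadjusted p under 0.05. Respiratory chain genes had 0 of 68 past an unadjusted p under 0.05, sterol synthesis and uptake 0 of 34, and the unfolded protein and stress response 0 of 32. Glycolysis and hypoxia genes had 1 higher and 1 lower of 39, antioxidant genes 1 and 1 of 31, and fibroblast and contractile genes 3 and 0 of 45, ACTG2 among them. Among their leading members, the glutathione peroxidase GPX7 was 0.796-fold, 0.892-fold and 0.890-fold as high for PC, ORC and AG1, carbonic anhydrase CA9 0.952-fold, 0.949-fold and 0.840-fold, and the matrix glycoprotein TNC 1.11-fold, 1.14-fold and 1.29-fold. The ferritin light chain FTL was 1.03-fold, 1.23-fold and 1.13-fold as high, and the lipase inhibitor ANGPTL4 0.969-fold, 1.13-fold and 1.27-fold. In the remaining lists the leading members were ELOVL6, DHCR7 and HSD17B7 of sterol and lipid synthesis (log2 fold changes of −0.16, −0.12 and −0.22), SDHB, ATP5PB and ATP5MC2 of the respiratory chain (0.09, −0.12 and −0.11), CRELD2, ERN1 and SESN2 of the stress response (−0.21, −0.14 and −0.15), the hypoxia-induced DDIT4 (−0.11) and the peroxiredoxin PRDX4 (−0.12). None of these passed the test.

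Outside the lists, EGR1, an immediate-early transcription factor, was at 6.25, 6.98 and 5.36 CPM with resting medium and at 11.3, 12.8 and 7.59 CPM with STING-MSC-CM, with the groups apart (log2 fold change 0.74 ± 0.13, adjusted p = 0.129). EGR1 was also higher than with resting medium for each donor with TLR-MSC-CM, at 9.81, 11.6 and 5.88 CPM. The immunoglobulin-like receptor ILDR2 was 1.09-fold, 1.43-fold and 1.56-fold higher with STING-MSC-CM, and the peptide transporter SLC15A3 1.31-fold, 1.23-fold and 1.62-fold. Among lower genes, FLI1, an ETS transcription factor, had the smallest p. It was at 1.98, 2.22 and 1.75 CPM with resting medium and at 0.974, 0.831 and 0.928 CPM with STING-MSC-CM, with the groups apart (log2 fold change −1.11 ± 0.276, adjusted p = 0.900). It was also lower in all 3 libraries with TLR-MSC-CM, at 1.20, 0.797 and 1.29 CPM. The cyclin CCNB3 was 0.732-fold, 0.596-fold and 0.784-fold as high, the laminin receptor subunit ITGA6 0.885-fold, 0.714-fold and 0.878-fold, and the tryptophan dioxygenase TDO2 0.682-fold, 0.615-fold and 0.691-fold, each with the groups apart. RNASEH2C, a subunit of the enzyme that removes ribonucleotides from DNA, was 0.815-fold, 0.896-fold and 0.817-fold as high. The mitochondrial carrier UCP2 was 0.958-fold, 0.848-fold and 0.590-fold as high, and the nuclear lamin LMNB1 0.865-fold, 0.904-fold and 0.768-fold. None of these lower genes passed after adjustment.

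The study called genes at an unadjusted p up to 0.05 whose log2 fold change was 2 or more in size. By that rule, applied here to the edgeR fit, 45 genes were higher (0.315%) and 12 lower (0.0839%). The study used DESeq2, which gave 23 higher and 6 lower when run here with MSC donor as a block. Of the 45 higher genes 16 were on the interferon list, and 13 had at least 1 CPM on average in either medium. Some of the 16, such as XAF1, were at 0 CPM in every resting library and in the STING libraries of PC and ORC. None of the 12 lower genes reached 1 CPM. Such genes rest on few counts, and the count of 57 fell to 14, all higher, under edgeR's own filter on low counts.

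STING-MSC-CM was also set against TLR-MSC-CM, to see which differences the 2 activated media did not share. No gene passed after adjustment (0%; smallest adjusted p 0.0502, for ACTG2), and 598 passed an unadjusted p under 0.05 (4.18%); DESeq2 called 2. ACTG2 was at 35.6, 133 and 34.2 CPM with TLR-MSC-CM, close to its levels with resting medium, and differed from STING-MSC-CM by 0.45 on the log2 scale. LGALS3BP was at 0.259, 0.542 and 1.26 CPM with TLR-MSC-CM (log2 difference 4.96, adjusted p = 0.0897). IFI6 was at 29.4, 34.6 and 76.7 CPM with TLR-MSC-CM, so that AG1 gave the highest level with both activated media. Because both comparisons with resting medium share the resting libraries, their values are set side by side only. The median of the interferon-stimulated list was 0.55 for STING- and 0.06 for TLR-MSC-CM.

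The same media were given to synoviocytes and macrophages, with macrophages from the blood of 1 horse and synoviocytes from the synovium of 1 horse. By the methods, every cell type received the same concentration of cytokines. By the sample labels, the macrophages received a lower concentration than the chondrocytes and synoviocytes. By those labels, chondrocytes and macrophages differ in cytokine concentration as well as in cell type, and the part of the concentration was not tested. In a fit over the 27 joint cell libraries, the change with STING-MSC-CM differed between chondrocytes and synoviocytes for 1 of 16584 genes (0.00603%), LGALS3BP, by 6.35 on the log2 scale (adjusted p = 0.0289). In the same fit, 284 of 16584 genes passed after adjustment for STING-MSC-CM against resting medium in macrophages, and 0 in synoviocytes. Between chondrocytes and macrophages the change differed for 17 genes (0.103%), higher in chondrocytes for 12 and lower for 5. Among the 17 were LGALS3BP (6.52, adjusted p = 0.0148), IFI27 (4.38, adjusted p = 0.0456) and HERC6 (4.68, adjusted p = 0.0456), all with the greater change in chondrocytes. FLI1 was also among them (−1.34, adjusted p = 0.0456). Without the chondrocyte STING library of AG1 both counts were 0, with 368 and 1290 genes at an unadjusted p under 0.05. Without the chondrocyte resting library of AG1 they were 0 and 1 (334 and 1130 at an unadjusted p under 0.05). The 17 became 1 without the resting library of PC or of ORC and 5 without the STING library of ORC, and the 1 became 2 without the STING library of PC. With resting MSC-CM of donor AG1, the mean of log2(CPM + 1) over the interferon-stimulated list was 2.56 in chondrocytes, 3.08 in synoviocytes and 6.18 in macrophages. With STING-MSC-CM of AG1 it was higher by 1.26, 0.139 and 0.435, in the same order of cell types. For ORC the differences were 0.177, 0.111 and −0.0893, and for PC 0.0756, 0.0996 and 0.067. With TLR-MSC-CM the largest difference was 0.724, in synoviocytes with CM of ORC.

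**Figure D5:**
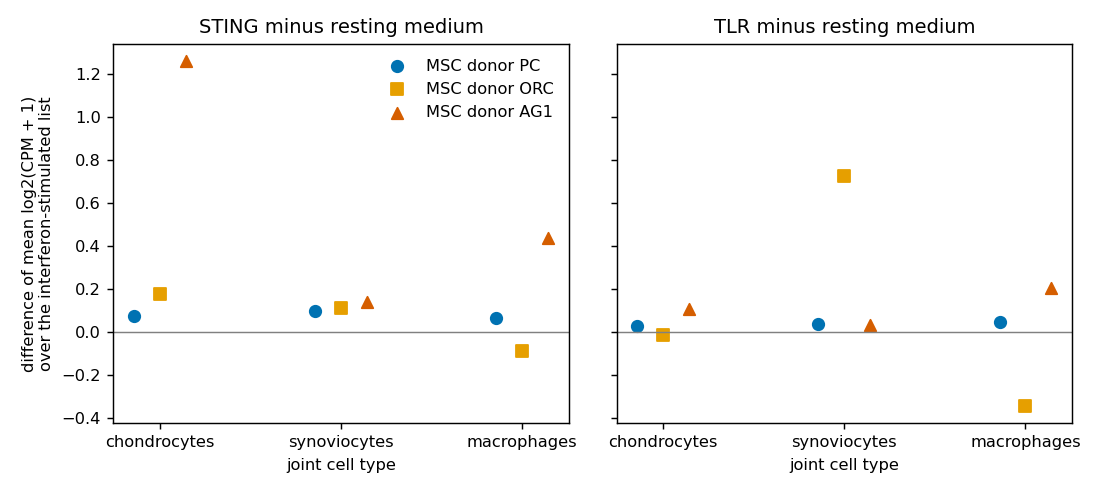
Difference of the mean log2(CPM + 1) over the interferon-stimulated list between an activated and the resting medium, for each joint cell type, with 1 point per MSC donor; STING-MSC-CM is on the left and TLR-MSC-CM on the right. The highest point on the left is AG1 in chondrocytes (1.26) and on the right ORC in synoviocytes (0.724).

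Across the 57 interferon-stimulated genes with at least 1 CPM, the log2 ratios of AG1 and ORC had a Pearson correlation of 0.704 (Spearman 0.429), those of AG1 and PC 0.489 (0.369) and those of ORC and PC 0.500 (0.317). Over all 11624 genes with at least 1 CPM the Pearson values were 0.152, 0.0525 and −0.0544. Each ratio uses libraries of its own, the genes are not independent replicates, and the genes share their base level and depth. Some of the 57, such as HERC6 and DDX60L, reach 1 CPM only through the STING library of AG1, so their choice depends on a value correlated here.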

How the data were processed

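RNA sequencing of cultured equine cells was analysed from the counts that the authors deposited. Per the labels and the methods, reads were trimmed with Cutadapt 1.12, aligned to EquCab3.0 with STAR and counted per gene with HTSeq 0.11.0, and protein coding genes were kept; whether strand was used is not given in the sources used here. The deposited values are raw counts of 20881 genes, 3970 of them by Ensembl identifier only, and 31 values of 1000000 or more are written with 3 significant digits. The count table of the MSC was not used.

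Genes with at least 10 counts over the 9 chondrocyte libraries with MSC-CM were tested in R 4.3.3 with edgeR 4.0.16 (TMM, quasi-likelihood test), with terms for MSC donor and medium and Benjamini-Hochberg adjustment over all genes tested. The 9 libraries share 1 estimate of the spread. The SE is the log2 fold change divided by the square root of its F value, and it is not a spread over the 3 pairs. The difference between cell types was tested as an interaction over 27 libraries. The methods were tested on simulated counts in which the 3 STING libraries of a changed gene shared 1 shift. That setting does not cover a change carried by 1 library. MSC donor was kept as a block because the study compared matched libraries; the deviations of STING and resting libraries of the same donor correlated at 0.355 (PC), 0.692 (ORC) and 0.381 (AG1). The labels give the token read as the MSC donor but name no separate chondrocyte cultures, so p-values measure the spread between these libraries. CPM use TMM-scaled totals, and list values per library are means of log2(CPM + 1). A library at or under 3 counts was set to 3 for a ratio within a donor.

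The libraries and gene lists were chosen with earlier results of these data known. Genes were named by rule. The rule took up to 12 per direction by smallest p among genes with 1 CPM and the same direction for all 3 donors (not passing ones are given as such), 3 per list, and LGALS3, LGALS3BP, TLR3, TNF, IL1B, IL6, CXCL8, MMP13, ADAMTS5, COL2A1, ACAN and SOX9. Alternatives were RLE factors, other filters, DESeq2 1.42.0, prior count 2, the 6 libraries alone, no donor block, and each library or pair left out.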

Additional observations from a re-analysis of the deposited data

Results flagged for a closer look

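The change with STING-MSC-CM differed between cell types, by the interaction test with adjustment over 16584 genes, for 4 of the genes named in the report. LGALS3BP differed between chondrocytes and synoviocytes by 6.35 (adjusted p = 0.0289) and between chondrocytes and macrophages by 6.52 (adjusted p = 0.0148), on the log2 scale. Against macrophages, IFI27 differed by 4.38, HERC6 by 4.68 and FLI1 by −1.34 (adjusted p = 0.0456 for each). By the sample labels, the macrophages also received a lower concentration of cytokines than the chondrocytes, and its part in the differences was not tested. LGALS3BP, IFI27 and HERC6 were higher in the chondrocyte STING library of donor AG1 than in any other chondrocyte library, and without that library no gene differed between chondrocytes and either cell type after adjustment (368 and 1290 at an unadjusted p under 0.05). Without any 1 of the 3 chondrocyte resting libraries, IFI27, HERC6 and FLI1 did not pass, and LGALS3BP passed without those of PC and ORC.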

How the results depend on the processing

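The 2 genes called against resting medium became 1 under filterByExpr, 17 with no filter beyond 1 count, 4 with DESeq2, 6 with the 6 libraries alone and 0 with no replicate block (130 at an unadjusted p under 0.05), and 0 to 12 when libraries or pairs were left out. No call was made without either library or the pair of AG1 (368 to 421 genes at an unadjusted p under 0.05) or without the TLR library of PC (499). The 57 genes past the thresholds of the study became 14, 35 and 29 under filterByExpr, no filter and DESeq2, 18 with prior count 2, and 16 to 64 with libraries left out. Against TLR-MSC-CM, 0 became 9 with no filter, 2 with DESeq2 and 0 to 7 with libraries left out. For synoviocytes, 1 became 0 under filterByExpr and with no replicate block, and 0 to 2 with libraries left out. For macrophages, 17 became 8 under filterByExpr, 0 with no replicate block and 0 to 14 with libraries left out. The cause of these differences was not tested.

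The median of the interferon-stimulated list ranged from 0.13 to 0.87 with libraries left out and stayed above 0 under every alternative run. It was 0.70 with no replicate block, with 22 of 69 genes higher at an unadjusted p under 0.05 in place of 44, and the 19 mitotic and 14 ribosomal protein genes became 0. Among the named genes, signs reversed only where no call was made. CXCL8 was −0.47 with no replicate block and IL1B 1.09 with DESeq2. With libraries or pairs left out, the log2 fold change ranged from −0.75 to 1.24 for CXCL8, −1.38 to 0.34 for IL1B, −0.10 to 0.33 for IL6, −0.37 to 0.23 for ACAN, −0.39 to 0.0659 for SOX9, −0.33 to 0.0132 for MMP13 and −0.0341 to 0.23 for LGALS3. CXCL8 and IL6 were below 0, and ACAN above 0, without the resting or the STING library of ORC or its pair. Genes under 1 CPM rest on few counts, and each medium has 3 libraries.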
